A study of Bos taurus with 6 samples.

Results

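The genes described here are 10 genes used to recognise fibroblasts of the ovarian stroma, the connective tissue that surrounds the follicles: LUM, DCN, OGN, MFAP5, FBN1, POSTN, PDGFRA, PDGFRB, TCF21 and NR2F2. They were chosen by name, with earlier results of these data known. All 10 were found among the 23704 genes to which the transcripts of the 6 libraries were summed, and all 10 passed the count filter that left 14639 genes for testing. The libraries came from bovine primordial follicles (PMF), an oocyte with its single layer of flattened pre-granulosa cells. Cultured follicles retrieved after 16 h (T16, 3 libraries) were compared with follicles retrieved after collection (T0, 3 libraries).

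Both groups were pools of bovine PMF, and the labels give no genotype, age or treatment beyond the culture time. By the study's methods, which do not describe the 16 h culture, PMF were isolated mechanically from the ovarian cortex of Holstein Friesian dairy cows. They then had a short recovery in medium with insulin, transferrin, selenite and FSH before collection. The medium of the 16 h culture is not given in the sources used here, nor is it stated whether the pools came from separate animals, so the p-values measure the spread between pools. Total estimated counts were 22174653 to 36703016 per library. The pools are whole follicles with whatever cells adhered to them, so in these bulk libraries fewer stromal cells and less RNA per cell cannot be told apart.

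LUM, DCN and OGN encode lumican, decorin and osteoglycin, small leucine-rich proteoglycans that bind collagen fibrils and set their spacing. FBN1 encodes fibrillin, the rod of the extracellular microfibril, and MFAP5 a glycoprotein that attaches to it. POSTN encodes periostin, a matricellular protein that links collagen to other matrix proteins and to integrins. PDGFRA and PDGFRB are the receptor tyrosine kinases through which PDGF ligands drive mesenchymal cells to divide and migrate, and PDGFRB is also a marker of pericytes. TCF21 and NR2F2 (COUP-TFII) are transcription factors of mesenchymal and interstitial cells, which in the mouse mark somatic progenitors of the gonad stroma. In the ovary these genes are known from the cortical stroma and the theca rather than from the oocyte.

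All 10 genes were detected in at least 3 libraries, but their levels were very unequal. LUM, DCN, POSTN and PDGFRA together held 93.2% to 97% of the summed TPM of the 10 genes in each library. OGN, MFAP5, PDGFRB and TCF21 had group means under 5 TPM at both times. A second list, of 10 fibroblast surface and adventitial genes, was as uneven. CD34 and IGF1 were under 1 TPM in every library, and PI16 and DPT reached at most 1.06 and 3.31 TPM. THY1 reached 66.8 TPM, NT5E 537 TPM, CLEC3B 32.3 TPM, SFRP4 14.1 TPM, ENG 13.3 TPM and GSN, the actin-severing protein gelsolin, 3709 TPM. Each of these is the highest value in any library. NT5E was at 8.68 TPM and THY1 at 2.74 TPM in T16 replicate 1, and CLEC3B was at 0 in T16 replicate 3. GSN had at least 234 TPM in every library. Some genes of this list were thus clearly detected and others barely, so the list did not settle the fibroblast label. The 10 genes are therefore described here one by one.

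**Figure D1:**
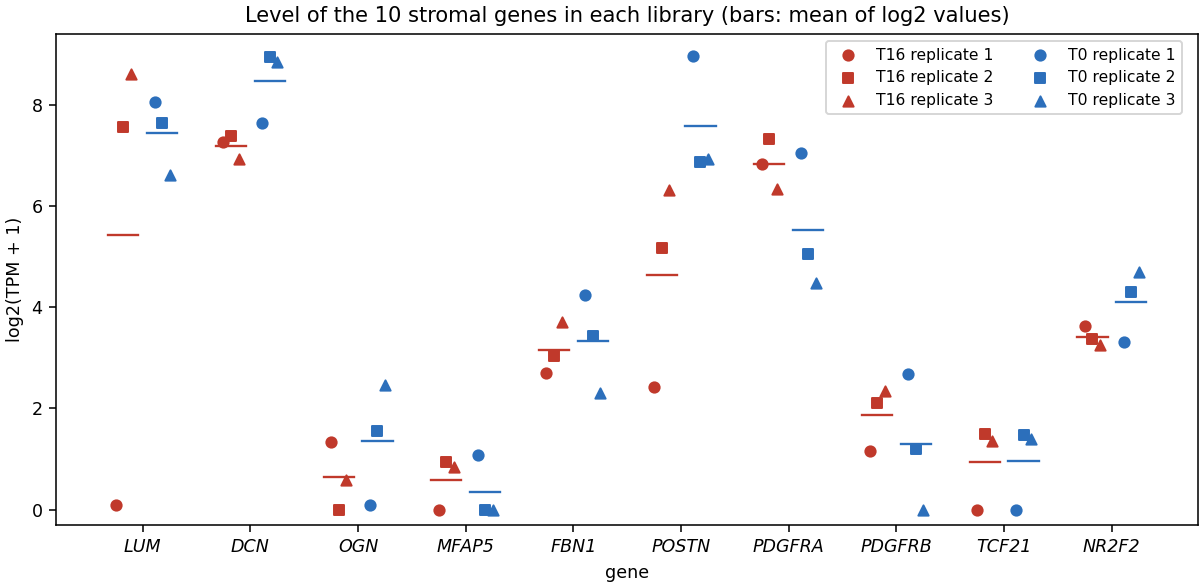
Level of each of the 10 genes in each library as log2(TPM + 1), T16 in red left of T0 in blue; symbols are replicates and bars are means of the log2 values. LUM is near 0 in T16 replicate 1 alone, DCN and POSTN have every T16 library below every T0 library, and OGN, MFAP5, PDGFRB and TCF21 are low throughout.

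The summed TPM of the 10 genes was 288, 570 and 695 in T16 replicates 1, 2 and 3, against 1126, 869 and 734 in T0 replicates 1, 2 and 3. Every T16 library thus lay below every T0 library on the TPM scale. Summed CPM was 658, 1094 and 1235.4 in T16 replicates 1, 2 and 3, against 2078.9, 1304.6 and 1097.6 in T0 replicates 1, 2 and 3, so on that scale the groups overlapped. The genes that filled the sum differed between libraries. DCN held 52.9% of it in T16 replicate 1 and LUM held 56.1% in T16 replicate 3. POSTN held 44.1% in T0 replicate 1, whereas DCN held 56.3% and 62.8% in T0 replicates 2 and 3.

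**Figure D2:**
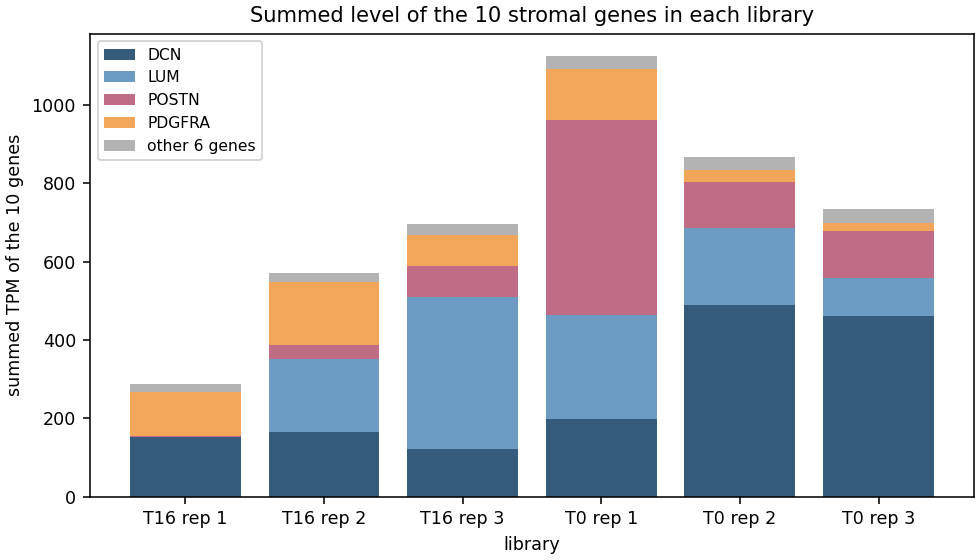
Summed TPM of the 10 genes in each library, stacked by gene, T16 on the left. The sum is 288 to 695 TPM in T16 libraries and 734 to 1126 TPM in T0 libraries, ranges that overlap when CPM is summed instead; LUM is absent from the bar of T16 replicate 1 and POSTN is the largest part of T0 replicate 1.

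None of the 10 genes was called between T16 and T0 by edgeR at an FDR of 0.05, where 6 of all genes tested were called (0.041%). At an unadjusted p under 0.05, 1 member (DCN) passed, against 13.8% of all genes tested. DESeq2 called DCN lower and none of the other 8 members to which it gave an adjusted p, while it called 7.02% of all genes. Every T16 library lay below every T0 library for DCN and POSTN, a pattern seen in 10.6% of all genes tested. For none of the 10 did every T16 library lie above every T0 library, against 13.2% of all genes. The median log2 fold change of the 10 genes was -0.01, beside -0.08 over all genes tested.

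**Figure D3:**
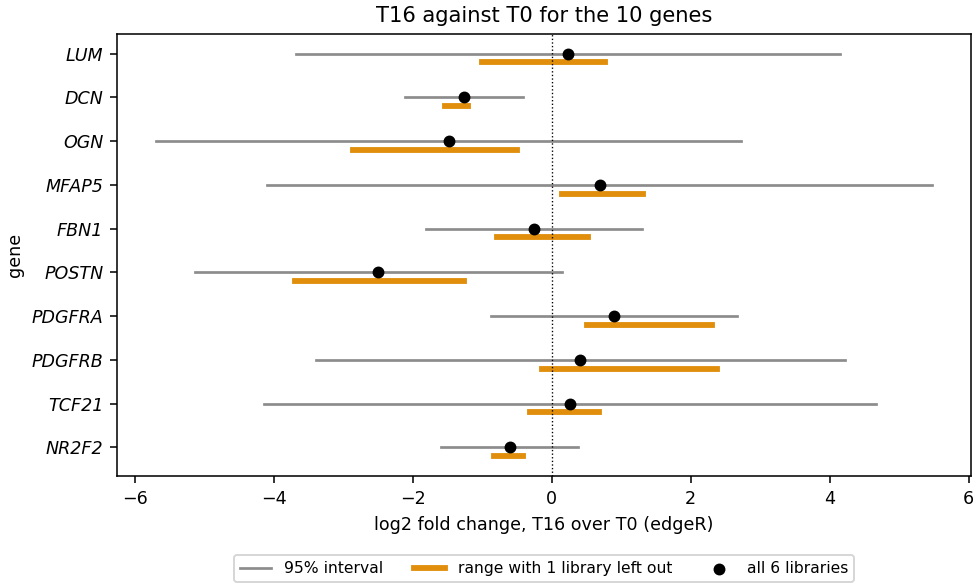
Log2 fold change of each gene, T16 over T0, by edgeR; grey lines are 95% intervals and orange lines the range over fits that leave out 1 library. The interval of DCN, -2.12 to -0.42, is the only one that does not include 0, and the orange lines of LUM, FBN1, PDGFRB and TCF21 cross 0.

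DCN was lower in every T16 library than in any T0 library, and by the SD of log2 CPM it was the steadiest member between T16 libraries. It had 152, 165 and 121 TPM in T16 replicates 1, 2 and 3, against 199, 489 and 461 TPM in T0 replicates 1, 2 and 3. The groups did not overlap, and T0 replicate 1 lay nearest to the T16 libraries. The mean was 146 TPM (SD 22.9, n = 3) at T16 and 383 TPM (SD 160, n = 3) at T0. The log2 fold change was -1.27 (SE 0.36), or 2.41-fold lower (edgeR adjusted p = 0.179; DESeq2 log2 fold change -1.35, adjusted p = 0.0245). Between the T16 libraries the SD of log2 CPM of DCN was 0.09, where the median over all genes tested was 0.74 and 2.05% of genes had an SD as small. Leaving out any 1 library kept the log2 fold change of DCN between -1.53 and -1.20.

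The oocyte list of 13 genes also differed between these libraries, with summed levels of 1763, 76.6 and 707 TPM in T16 replicates 1, 2 and 3, against 450, 1796 and 2610 TPM in T0 replicates 1, 2 and 3. At T0 both DCN and the oocyte list were lowest in replicate 1. At T16 the library with the least oocyte RNA, replicate 2, had the highest DCN. The part of the oocyte share in the result for DCN was not tested. Without T0 replicate 1 and T16 replicate 2 together, the log2 fold change of DCN was -1.58, a fit chosen after the values were seen.

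LUM was present in 5 libraries and all but missing from the sixth. It had 0.0718, 188 and 390 TPM in T16 replicates 1, 2 and 3, against 265, 198 and 96.4 TPM in T0 replicates 1, 2 and 3. T16 replicate 1 held 2 counts of LUM and T16 replicate 3 held 16212. The groups overlapped, and both the lowest and the highest value lay at T16. The SD of log2 CPM between T16 libraries was 6.43, a value reached by 0.0273% of all genes tested, against 0.88 between T0 libraries. No difference was shown, with a log2 fold change of 0.24 and a 95% interval of -3.68 to 4.15 (edgeR adjusted p = 0.972). Its sign was not stable: the difference of the mean log2(TPM + 1) was -2.01, and edgeR gave -1.01 when T16 replicate 3 was left out and -0.13 when T0 replicate 3 was.

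T16 replicate 1 was also the lowest library for the theca and smooth muscle lists, but not for every list. The theca and steroidogenic list of 6 genes summed to 57.9 TPM there, against 593 and 1856 TPM in T16 replicates 3 and 2 and 631 to 3657 TPM at T0. All 6 were detected in that library, although CYP17A1, the defining androgen-making enzyme of the theca, was at most 2.85 TPM in any library and at 0 in T16 replicate 2 and T0 replicate 3. The smooth muscle and pericyte list of 12 genes summed to 31.7 TPM there, against 58.5 and 121 TPM in the other T16 libraries and 116 to 445 TPM at T0, and ACTA2, MYH11 and KCNJ8 were at 0 in it. Within these lists LHCGR and MCAM were highest in T16 replicate 1, at 3.19 and 7.3 TPM. A surface epithelium list was lowest in T16 replicate 1, at 679 TPM. The fibroblast surface list summed to 549 TPM there and was lowest in T0 replicate 3, at 265 TPM. An endothelial list of 10 genes summed to 113 TPM in T16 replicate 1, against 41.7 and 46.6 TPM in T16 replicates 2 and 3. The part of any of these cell types in the result for LUM was not tested. Without T16 replicate 1 the log2 fold change of LUM was 0.77.

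OGN, the third proteoglycan of the list, was close to the limit of detection. It had 1.54, 0 and 0.497 TPM in T16 replicates 1, 2 and 3, against 0.0606, 1.93 and 4.48 TPM in T0 replicates 1, 2 and 3. These came from 52, 0 and 25 counts at T16 and from 2, 77 and 134 counts at T0, and by counting error alone the 0 in T16 replicate 2 leaves room for 0.116 CPM. The groups overlapped, and the 95% interval of the log2 fold change of -1.48 ran from -5.70 to 2.73 (edgeR adjusted p = 0.791). It was -2.86 without T16 replicate 1, -0.90 without T16 replicate 2 and -0.50 without T0 replicate 3.

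In the RefSeq table, LUM lies between DCN and KERA, with EPYC beyond KERA, and OGN, OMD, ASPN and ECM2 follow each other. These neighbours are all leucine-rich matrix proteins. EPYC had 0 counts in every library. KERA, which encodes keratocan, was at 0 in all 3 T16 libraries, against 0.752, 1.86 and 1.22 TPM in T0 replicates 1, 2 and 3. OMD had 1.26, 0.525 and 1.32 TPM in T16 replicates 1, 2 and 3, against 0.291, 0.664 and 2.96 TPM in T0 replicates 1, 2 and 3. Its groups overlapped. ASPN was at most 0.0362 TPM at T16 and at most 1.10 TPM at T0. ECM2, at the end of the row that begins with OGN, had 1.03, 1.14 and 0.103 TPM in T16 replicates 1, 2 and 3, against 4.29, 16.5 and 17.1 TPM in T0 replicates 1, 2 and 3. The genes of either row thus differed widely in level in the same libraries. The gene CENPP overlaps the span of OGN in the table. Reads were assigned to transcript sequences, and whether transcripts of OGN and CENPP share sequence was not examined.

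FBN1, the fibrillin of most adult tissues, was expressed at a low level at both times, and no difference was shown. It had 5.51, 7.19 and 12.0 TPM in T16 replicates 1, 2 and 3, against 17.9, 9.74 and 3.97 TPM in T0 replicates 1, 2 and 3. The T16 libraries lay within the range of the T0 libraries, with T0 replicate 1 the highest and T0 replicate 3 the lowest. The mean was 8.23 TPM (SD 3.37, n = 3) at T16 and 10.5 TPM (SD 6.98, n = 3) at T0. The log2 fold change was -0.26 with a 95% interval of -1.81 to 1.3 (edgeR adjusted p = 0.913), and it was 0.52 without T0 replicate 1. FBN2, a fibrillin best known from developing tissue, had 0 counts in 4 libraries and at most 0.133 TPM in the other 2.

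MFAP5 was detected in 3 libraries only. It had 0, 0.918 and 0.792 TPM in T16 replicates 1, 2 and 3, against 1.10, 0 and 0 TPM in T0 replicates 1, 2 and 3. The highest count was 15, in T16 replicate 3, so no difference was detectable at this depth (edgeR log2 fold change 0.69, 95% interval -4.10 to 5.48, adjusted p = 0.925). MFAP2, the other microfibril-associated glycoprotein of this family, was far more abundant and was named after its values were seen. It had 17.0, 17.2 and 14 TPM in T16 replicates 1, 2 and 3, against 41.5, 267 and 101 TPM in T0 replicates 1, 2 and 3. The T16 libraries were nearly equal and lay below every T0 library (log2 fold change -2.92, SE 0.64; edgeR adjusted p = 0.122).

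POSTN had the largest fitted fold difference of the 10 genes in the edgeR comparison of all 6 libraries, but not without T0 replicate 1 or T16 replicate 1. It had 4.36, 35.0 and 78.3 TPM in T16 replicates 1, 2 and 3, against 497, 116 and 120 TPM in T0 replicates 1, 2 and 3. All T16 libraries lay below all T0 libraries, and T0 replicate 1 stood far above the other T0 libraries. The mean was 39.2 TPM (SD 37.1, n = 3) at T16 and 244 TPM (SD 218, n = 3) at T0. The log2 fold change was -2.50 (SE 1.13), with a 95% interval of -5.14 to 0.15 that includes 0 (edgeR adjusted p = 0.391; DESeq2 adjusted p = 0.0996). T0 replicate 1 held 67.7% of the T0 sum of POSTN, and without that library the mean at T0 was 118 TPM and the log2 fold change was -1.26, smaller in size than that of PDGFRB at 2.38. Without T16 replicate 1 it was -1.97, smaller in size than that of OGN at -2.86, and without T16 replicate 3 it was -3.69.

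T0 replicate 1 was the highest T0 library for 6 of the 10 genes and the lowest for the other 4. It held 71.1% of the T0 sum of PDGFRA, 56.6% of that of FBN1 and 47.4% of that of LUM, but 17.3% of that of DCN and 17% of that of NR2F2. The theca and steroidogenic list also summed highest there, at 3657 TPM against 1219 and 631 TPM in T0 replicates 2 and 3. So did the smooth muscle and pericyte list, at 445 TPM against 337 and 116 TPM. Single genes of these lists differed. T0 replicate 1 was the highest T0 library for 4 of the 6 theca genes and the lowest for 2, INSL3 and LHCGR. For the 12 smooth muscle and pericyte genes, T0 replicate 1 was the highest for 7 and the lowest for 3, among them MYH11. The part of these lists in the levels of POSTN and PDGFRA was not tested.

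PDGFRA was the more abundant PDGF receptor in every library, and it was high in all T16 libraries. It had 112, 160 and 79.2 TPM in T16 replicates 1, 2 and 3, against 132, 32.1 and 21.4 TPM in T0 replicates 1, 2 and 3. The groups overlapped only through T0 replicate 1. The log2 fold change was 0.90 (SE 0.75, edgeR adjusted p = 0.683). Without T0 replicate 1 it was 2.31 (edgeR adjusted p = 0.0913), and without T0 replicate 3 it was 0.51. That the groups no longer overlap without T0 replicate 1 follows from leaving out that library and is no separate result. In the RefSeq table PDGFRA is followed by KIT, another receptor tyrosine kinase of the same class, which oocytes express. KIT had 39.0, 39.5 and 29.7 TPM in T16 replicates 1, 2 and 3, against 59.3, 42.4 and 42.4 TPM in T0 replicates 1, 2 and 3, a narrower range than that of PDGFRA.

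PDGFRB was low and had 1.23, 3.30 and 4.05 TPM in T16 replicates 1, 2 and 3, against 5.41, 1.3 and 0 TPM in T0 replicates 1, 2 and 3. By counting error alone, the 0 counts in T0 replicate 3 leave room for 0.135 CPM. TPM of PDGFRA was 90.8, 48.5 and 19.5 times that of PDGFRB in T16 replicates 1, 2 and 3, against 24.3 and 24.7 times in T0 replicates 1 and 2. The log2 fold change of PDGFRB was 0.41 with a 95% interval of -3.40 to 4.22 (edgeR adjusted p = 0.947). Leaving out T0 replicate 3 gave -0.14, and leaving out T16 replicate 3 gave -0.015. Of the pericyte genes of the smooth muscle and pericyte list, RGS5, KCNJ8, NOTCH3 and ABCC9 were at most 1.21 TPM in any library, whereas CSPG4 reached 9.73 TPM, MCAM 7.3 TPM and DES, which muscle also makes, 28.7 TPM.

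Of the PDGF ligands, PDGFC and PDGFA were the most abundant. None of the 4 was called by edgeR or DESeq2, against 0.041% and 7.02% of all genes. PDGFC had 5.95, 202 and 67.9 TPM in T16 replicates 1, 2 and 3, against 217, 112 and 55.9 TPM in T0 replicates 1, 2 and 3. It was lowest in T16 replicate 1, as LUM was. PDGFA, a ligand that binds PDGFRA homodimers, had 32.2, 29.0 and 18 TPM in T16 replicates 1, 2 and 3, against 13.9, 15.2 and 14.3 TPM in T0 replicates 1, 2 and 3. Every T16 library lay above every T0 library, a pattern seen in 13.2% of all genes tested (log2 fold change 0.97, SE 0.38, edgeR adjusted p = 0.320). PDGFB and PDGFD averaged 5.89 and 6.42 TPM at T16, against 5.68 and 8.35 TPM at T0.

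NR2F2 was the only transcription factor of the list with clear expression. It had 11.4, 9.30 and 8.50 TPM in T16 replicates 1, 2 and 3, against 8.92, 18.7 and 24.9 TPM in T0 replicates 1, 2 and 3. The T16 libraries were close to each other and to T0 replicate 1, and lay below T0 replicates 2 and 3. The log2 fold change was -0.60 (SE 0.42, edgeR adjusted p = 0.607), and it was -0.83 without T0 replicate 1. NR2F1, its close relative, had 15.5, 5 and 7.19 TPM in T16 replicates 1, 2 and 3, against 3.87, 15.7 and 14 TPM in T0 replicates 1, 2 and 3.

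TCF21 was at the limit of detection. It had 0, 1.82 and 1.55 TPM in T16 replicates 1, 2 and 3, against 0, 1.77 and 1.62 TPM in T0 replicates 1, 2 and 3, from at most 42 counts. The 4 libraries in which it was detected were nearly equal, and no difference between the times was detectable at this depth (edgeR log2 fold change 0.26, 95% interval -4.14 to 4.66, adjusted p = 0.973). The direction changed with the library left out, from -0.32 without T0 replicate 1 to 0.68 without T16 replicate 1, with -0.20 when T16 replicate 3 was left out and -0.12 when T16 replicate 2 was.

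The 6 members with group means above 5 TPM in at least 1 group did not rise and fall together over the libraries. Over the 6 libraries, which share the difference between T16 and T0, the Pearson correlation of log2(TPM + 1) was 0.92 between DCN and NR2F2 and 0.82 between LUM and POSTN. It was -0.84 between PDGFRA and DCN and -0.92 between PDGFRA and NR2F2, and between -0.62 and 0.59 for the other 11 pairs. Within T0, DCN and NR2F2 were lowest in replicate 1 and LUM, FBN1, POSTN and PDGFRA were highest there. Within T16, LUM, FBN1 and POSTN were lowest in replicate 1, PDGFRA and DCN were highest in replicate 2, and NR2F2 was highest in replicate 1.

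**Figure D4:**
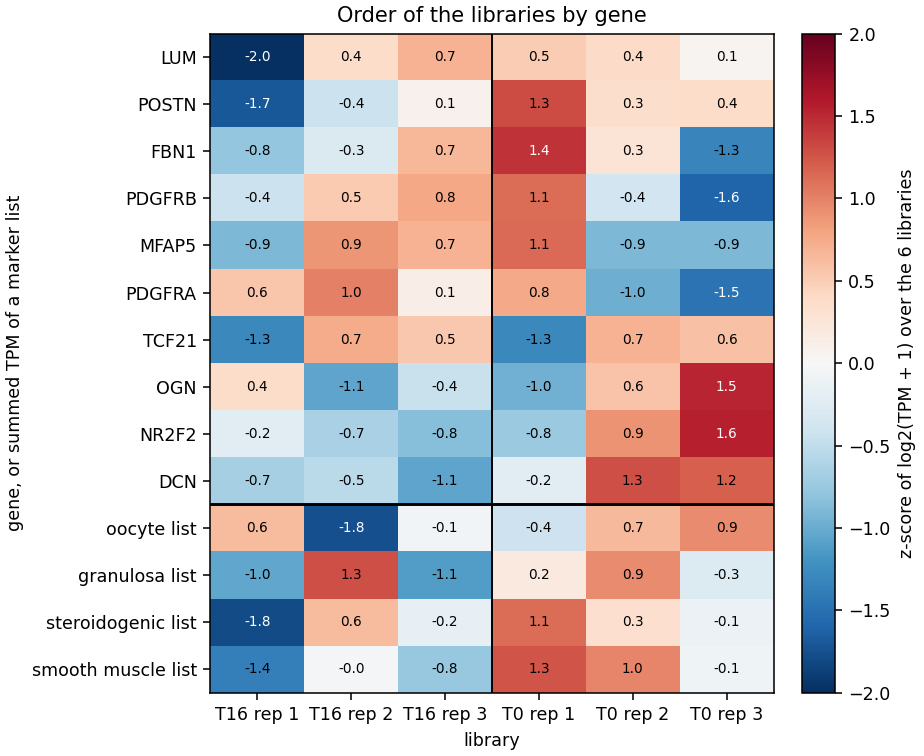
Z-score of log2(TPM + 1) over the 6 libraries for each of the 10 genes (above the line) and for the summed TPM of 4 marker lists (below it); red is above the mean of a row and blue below it. LUM and POSTN are lowest in T16 replicate 1, whereas DCN, NR2F2 and OGN are highest in T0 replicates 2 and 3.

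The genes most like the 10 as a set, by Pearson correlation with the mean z-score of their log2(TPM + 1) over the 6 libraries, were ATP6V0C (0.998), MPP1 (0.996), LOC101908683 (0.993), DPP7 (0.993), APOA1 (0.992), BLOC1S1 (0.992), RCN3 (0.992) and RHBDD3 (0.992). Of 8378 genes with a mean of at least 10 TPM, 130 reached 0.95. ATP6V0C, a subunit of the proton pump of lysosomes, had 219, 377 and 408 TPM in T16 replicates 1, 2 and 3, against 477, 447 and 371 TPM in T0 replicates 1, 2 and 3. It was lowest in T16 replicate 1 and highest in T0 replicate 1, the order of the summed TPM of the 10 genes at those ends. APOA1, an apolipoprotein of high-density lipoprotein, had 2.59, 282 and 394 TPM in T16 replicates 1, 2 and 3, against 1203, 846 and 113 TPM in T0 replicates 1, 2 and 3.

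A search for the genes nearest to single members was added after the values were seen. The nearest were FOXO3 for DCN (0.992), TUFM for LUM (0.994), FITM2 for PDGFRA (0.996) and SRBD1 for FBN1 (0.988). For POSTN it was TMEM181 (0.996) and for NR2F2 USE1 (0.989). XCL1 for LUM (0.991), MKX for PDGFRA (0.991) and TIMP1 for FBN1 (0.984) ranked behind other genes and were named after their values were seen. FOXO3, a forkhead factor that in the mouse holds primordial oocytes dormant, had 23.6, 29.3 and 19.1 TPM in T16 replicates 1, 2 and 3, against 32.8, 63.9 and 64.8 TPM in T0 replicates 1, 2 and 3. MKX, a homeobox factor of tendon fibroblasts in the mouse, had 174, 190 and 147 TPM in T16 replicates 1, 2 and 3, against 174, 76.8 and 59.7 TPM in T0 replicates 1, 2 and 3. TIMP1, an inhibitor of matrix metallopeptidases, had 668, 1002 and 1643 TPM in T16 replicates 1, 2 and 3, against 3103, 1340 and 636 TPM in T0 replicates 1, 2 and 3. These are likenesses over 6 libraries only. For DCN 79 genes reached 0.95, for LUM 90, for PDGFRA 72, for FBN1 16, for POSTN 35 and for NR2F2 48.

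Several other matrix genes had every T16 library below every T0 library, although edgeR called none of those on the related lists. Of the 11 other proteoglycans, 8 were tested, and BGN and KERA passed the count filter through the T0 libraries alone. Of the remaining 6, FMOD, PRELP and ECM2 had every T16 library below every T0 library, against 10.6% of all genes tested, and the median log2 fold change of the 6 was -1.80. FMOD, or fibromodulin, which like LUM binds fibrillar collagen, had 104, 58.7 and 75.3 TPM in T16 replicates 1, 2 and 3, against 273, 891 and 1009 TPM in T0 replicates 1, 2 and 3. As for DCN, T0 replicate 1 lay between the T16 libraries and the other T0 libraries. FMOD had a log2 fold change of -3.02 (SE 0.53; edgeR adjusted p = 0.0921, DESeq2 adjusted p = 2.15e-06). PRELP, a proteoglycan of basement membranes and cartilage, had 6.07, 10.7 and 5.03 TPM in T16 replicates 1, 2 and 3, against 45.2, 124 and 98.1 TPM in T0 replicates 1, 2 and 3 (log2 fold change -3.48, SE 0.45; edgeR adjusted p = 0.0838, DESeq2 adjusted p = 2.41e-10). VCAN, a large proteoglycan, was at 0 in T16 replicate 1 and had 56.9 and 20.9 TPM in T16 replicates 2 and 3, against 48.4, 16.6 and 2.01 TPM in T0 replicates 1, 2 and 3.

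Of the 15 other microfibril and elastic fibre genes, 13 were tested, and in 9 of them every T16 library lay below every T0 library, against 10.6% of all genes tested. The median log2 fold change of the 13 was -2.41, and DESeq2 called 7 of them lower and 0 higher, where it called 7.02% of all genes in either direction. EdgeR called 0 and gave 7 an unadjusted p under 0.05, against 13.8% of all genes. FBLN1, a fibulin that binds fibrillin and elastin, had 0.0564, 14.4 and 2.37 TPM in T16 replicates 1, 2 and 3, against 113, 41.6 and 19.7 TPM in T0 replicates 1, 2 and 3. Every T16 library lay below every T0 library, and a log2 fold change of -3.40 (SE 1.52) did not pass (edgeR adjusted p = 0.386). LTBP3, which tethers latent TGF-beta to the matrix, had 4.74, 0.797 and 1.36 TPM in T16 replicates 1, 2 and 3, against 11.2, 34.5 and 13.9 TPM in T0 replicates 1, 2 and 3 (log2 fold change -3.05, SE 0.79, edgeR adjusted p = 0.147). LTBP1 and EFEMP1, the other genes named for this list, had log2 fold changes of -0.29 and -1.27, and their groups overlapped.

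Of the 11 other matricellular genes, 8 were tested, and their median log2 fold change was -0.24. In 1 of the 8 every T16 library lay above every T0 library, against 13.2% of all genes tested. In 0 every T16 library lay below, against 10.6% of all genes. THBS1, or thrombospondin, which activates latent TGF-beta, had 51.7, 38.7 and 44.6 TPM in T16 replicates 1, 2 and 3, against 18.4, 10.7 and 9.56 TPM in T0 replicates 1, 2 and 3. THBS1 was higher in every T16 library, with a log2 fold change of 1.88 (SE 0.42; edgeR adjusted p = 0.123, DESeq2 adjusted p = 0.00226). CCN2, IGFBP7 and SPARCL1 had log2 fold changes of 1.04, -1.75 and -2.32, and their groups overlapped. SPARC, a collagen-binding matricellular protein named after its values were seen, had 71.6, 3672 and 4541 TPM in T16 replicates 1, 2 and 3, against 9763, 3033 and 1640 TPM in T0 replicates 1, 2 and 3, so that T16 replicate 1 was again far below the others.

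Of the 14 other mesenchymal transcription factors, 11 were tested. None was called by edgeR or DESeq2, against 0.041% and 7.02% of all genes. At an unadjusted edgeR p under 0.05 the count was 0, against 13.8% of all genes. In 1 of the 11 every T16 library lay above every T0 library, against 13.2% of all genes. In 1 every T16 library lay below, against 10.6%. PRRX1, a homeobox factor of mesenchyme, had 26.6, 30.1 and 22.7 TPM in T16 replicates 1, 2 and 3, against 1.53, 17.4 and 14.5 TPM in T0 replicates 1, 2 and 3. Every T16 library lay above every T0 library (log2 fold change 1.63, SE 0.72; edgeR adjusted p = 0.381). MEIS1 lay on the other side, with 0.678, 1.21 and 5.33 TPM in T16 replicates 1, 2 and 3, against 10.5, 8.65 and 7.63 TPM in T0 replicates 1, 2 and 3. OSR2 had a log2 fold change of -1.17 and NR2F1 of -0.13, with overlapping groups.

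Of the 10 fibroblast surface and adventitial genes, 8 were tested, with a median log2 fold change of -1.69. None was called by edgeR or DESeq2, against 0.041% and 7.02% of all genes. At an unadjusted edgeR p under 0.05 the count was 0, against 13.8% of all genes. CLEC3B, NT5E, ENG and GSN had log2 fold changes of -3.43, -2.24, -1.14 and 1.05, all with overlapping groups. SFRP4, a secreted Wnt antagonist named after its values were seen, was the only gene of the list with every T16 library below every T0 library, at 0, 2.46 and 0.831 TPM in T16 replicates 1, 2 and 3, against 2.63, 14.1 and 4.15 TPM in T0 replicates 1, 2 and 3 (log2 fold change -2.50, SE 1.58; edgeR adjusted p = 0.559). NT5E, the ectonucleotidase CD73, had 8.68, 48.9 and 73.3 TPM in T16 replicates 1, 2 and 3, against 537, 93.1 and 11.3 TPM in T0 replicates 1, 2 and 3. Like POSTN and FBN1, it was highest in T0 replicate 1.

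**Figure D5:**
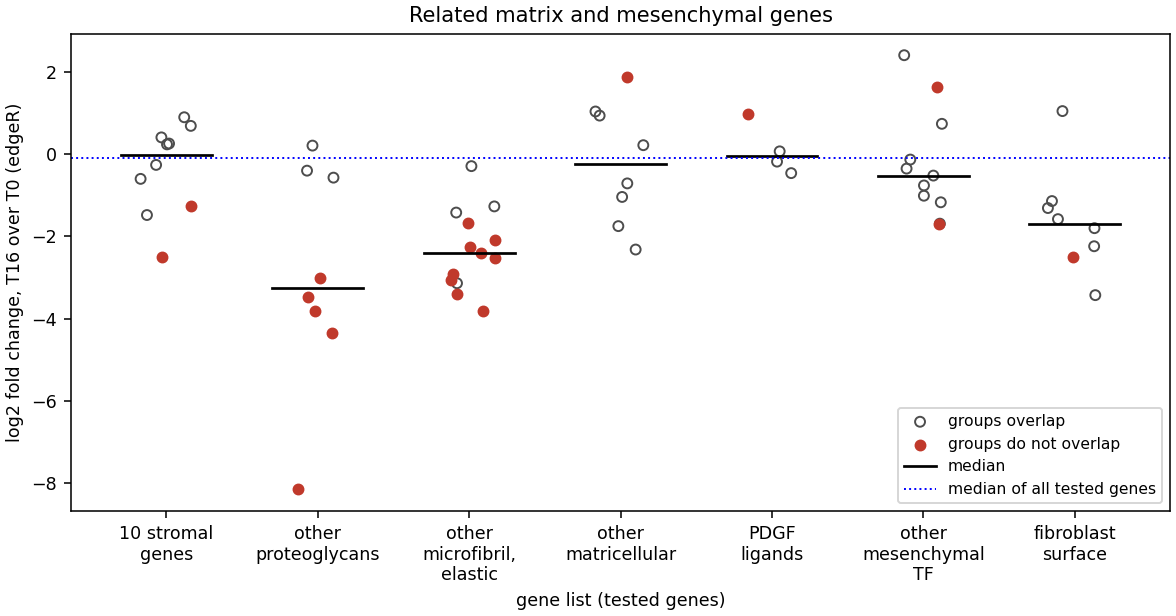
Log2 fold change, T16 over T0, of each tested gene of the 10 stromal genes and of 6 related lists; filled red points have groups that do not overlap, black bars are list medians and the dotted line is the median of all tested genes, -0.08. Of the microfibril and elastic fibre genes 9 of 13 are filled and lie below 0, against 2 of the 10 stromal genes; the lowest point is KERA, which has 0 counts at T16, so that its fitted value is no measured size.

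The RefSeq transcripts behind the gene sums were also compared. The files held 1 of the 3 LUM transcripts of the RefSeq table, 3 of 6 for PDGFRA, 7 of 9 for PDGFRB and 2 of 3 for FBN1, so the sums of these genes may be partial, and all the table's transcripts of the other 6 genes. LUM, OGN and TCF21 had 1 transcript each in the files, and FBN1 came from a predicted longer transcript for 96.7% of its TPM. DCN was split almost evenly over 2 transcripts by the authors' quantification. The curated DCN transcript (NM_173906.4) held 37.9%, 39.7% and 45.7% of the gene's TPM in T16 replicates 1, 2 and 3, against 57.4%, 56.5% and 42.6% in T0 replicates 1, 2 and 3. These shares overlapped between the groups because of T0 replicate 3. The curated PDGFRA transcript (NM_001192345.2) held 43.3% to 50.1% at T16, against 48.6% to 58.1% at T0. NR2F2 varied more between libraries than DCN or PDGFRA, with 72.8%, 83.7% and 30.9% of its TPM in the curated transcript (NM_174402.3) in T16 replicates 1, 2 and 3, against 49.9%, 77.3% and 80.7% in T0 replicates 1, 2 and 3. Counted on its most abundant transcript alone, NR2F2 had a log2 fold change of -1.09, and DCN had -1.12. POSTN was spread over 7 transcripts, of which the 2 most abundant held 32.9% and 26.9% of its summed TPM.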

How the data were processed

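RNA was amplified with SMART-Seq v4 from 3 T16 and 3 T0 pools of PMF. The authors trimmed reads with Trim Galore 0.6.7 and fastp 0.23.2 and mapped them to the ARS-UCD1.3 transcriptome with Salmon 1.9.0. They deposited estimated counts per RefSeq transcript and, as a second unit, TPM. Both were summed to genes with gene names from RefSeq's ARS-UCD2.0 annotation (no coordinates used), and counts were rounded. Of 76123 transcripts 66.0% matched by accession without version, and unmatched ones held 9.7% to 10.9% of a library's counts.

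The comparison of T16 with T0 used edgeR 4.0.16 (TMM, quasi-likelihood test, two-sided, Benjamini-Hochberg over all genes tested). Genes needed 10 counts or more in 3 or more libraries. SE is the log2 fold change divided by the root of F. DESeq2 1.42.0, limma 3.58.1 on log2(TPM + 1), other filters and scalings, the replicate number as a block and leaving out each library were alternatives. The procedure was tested on simulated data with 200 changed genes. Of 67 simulated 4-fold changes edgeR called 3 and DESeq2 24, and of 67 simulated 16-fold changes 52 and 63. Among the unchanged genes edgeR called 3 and DESeq2 94. EdgeR thus missed most 4-fold changes, and DESeq2 made more false calls. Upper limits for 0 counts are 3 counts.

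The members, lists and tests were chosen with earlier results of these data known. All members are named; of related lists, the 2 highest and 2 lowest log2 fold changes among genes with a mean of at least 5 TPM, and exceptions are stated. Groups overlap or not by CPM.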

Additional observations from a re-analysis of the deposited data

How the results depend on the processing

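The number of all genes called was 6, and it was 0 with the replicate block, 1027 by DESeq2, 11 without the count filter, 135 and 51 by limma with a pseudocount of 1 and 0.1, 1 on the most abundant transcript only, 0 without T0 replicate 1 and T16 replicate 2 together and 0 to 3 without 1 library. The number of members called was 0, and it was 1 (DCN) by DESeq2 and 0 in every other fit. The median of the members was -0.34 with the replicate block. By limma with a pseudocount of 1 and 0.1 it was -0.69 and -0.73, over the 9 members tested. With at least 50 counts required in 3 libraries it was -0.52, over 8 members. Without 1 library the median of the members ran from -0.79 to 0.33. No source used here states that same-numbered libraries were paired, and the numbers were not taken as pairs. Deviations from the group means correlated at -0.445, -0.121 and -0.005 for same-numbered libraries and at -0.403 to 0.438 for the others. These correlations cannot show whether pools shared a collection. Of 16 alternative fits, none reversed DCN, OGN, MFAP5, POSTN, PDGFRA or NR2F2 where they could be tested. LUM was -0.59 with the replicate block, and -2.01 and -2.88 by limma with a pseudocount of 1 and 0.1. TCF21 was -0.0036 and -0.006 in those limma fits and -0.70 without T0 replicate 1 and T16 replicate 2 together, where FBN1 was 0.66. Without 1 library LUM ran from -1.01 to 0.77, FBN1 from -0.79 to 0.52, PDGFRB from -0.14 to 2.38 and TCF21 from -0.32 to 0.68. No cause of these changes was tested. With the replicate block MFAP5, at 3.36, was farther from 0 than POSTN, at -2.41. MFAP5, with at most 15 counts, passed the filter in only 8 of the alternatives. OGN, MFAP5 and TCF21 rested on at most 134, 15 and 42 counts in any library.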
